A study of Mus musculus with 19 samples.

Results

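Mouse chromosomes 5 and 17 (Chr5 and Chr17) were examined by aCGH in liver tumors of mice, 4 hepatocellular adenomas (HCA) and 6 hepatocellular carcinomas (HCC), and in 9 unaffected livers. All non-control aCGH probes placed on these chromosomes were taken, leaving out a 1.1-Mb interval of proximal Chr17 with 156 probes that was not analysed here. That left 13855 probes on Chr5 and 8866 on Chr17, 22721 of the 221299 autosomal probes. They fell into 31 bins of 5 Mb on Chr5 and 19 on Chr17, 50 of the 500 bins of the autosomes. The probes ran from 3008399 to 152536960 on Chr5 and from 3006536 to 95265348 on Chr17 of the mouse build NCBI37 (mm9). The median spacing was 7851 bp on Chr5 and 7458 bp on Chr17.

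There were 9 mice, and 1 unaffected liver was taken from each. All carried Mad2(f/f) and an albumin-driven Cre, which acts in hepatocytes and leaves the other cells of the liver unrecombined. The 4 HCAs were from females of the strain C57BL/6.129-Mad2flox,p53flox,AlbuminCre. Mouse 2430 (16.9 months) and mouse 6199 (12 months) were p53(f/f), while mouse 5884 (14.2 months) and mouse 5901 (12 months) were p53(f/+). The HCCs were from 5 mice labelled p53ser246+, a point-mutant p53 allele that their strain label writes p53ser249. Mouse 6240 (female, 16.2 months) gave tumors 4 and 2, which share an animal. The other HCCs came from mouse 6602 (female, 13.2 months) and from the males 6487 (12.8 months), 6565 (14.7 months) and 6642 (12.3 months). Tumor type and p53 genotype cannot be told apart. Scan day also largely followed tumor type, with 2 HCAs on day 1, 2 HCAs and 1 HCC on day 2 and 5 HCCs on day 3. Males were found only among the mice with HCCs. HCA 5901 was scanned on day 2 and its own liver on day 1. The control DNA in the second channel was liver of C57BL/6.129 mice of the opposite sex.

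Loss of Mad2l1, a spindle assembly checkpoint protein, lets cells leave mitosis before their chromosomes are attached, so that whole chromosomes are gained or lost. A whole-chromosome gain raises all probes of a chromosome together, whereas a deletion, duplication or unbalanced rearrangement moves a stretch of it and leaves a step in the profile. Hepatocytes are often polyploid, and in a polyploid cell a single extra copy makes a smaller ratio than in a diploid one. Chr5 carries, among others, the hepatocyte genes Alb and Afp (albumin and alpha-fetoprotein), the growth factor gene Hgf, the receptor gene Kit and the cell cycle kinase gene Cdk6. Chr17 carries Igf2r (a receptor that clears insulin-like growth factor 2), Vegfa (an angiogenic factor) and Cdkn1a and Ccnd3 (a brake and a driver of the cell cycle). These genes were placed on the chromosomes by RefSeq. The files place probes by coordinates without gene names, so no gene is given a value here, and the deletion of the floxed genes, which lie on other chromosomes, was not analysed.

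The aCGH ratio of a chromosome is the mean log2 ratio of sample over control DNA across its probes, after each array was centred on its autosomal median. The X chromosome gave the scale, because the control was of the opposite sex. Its ratio was 0.885 to 1.04 in the 6 female livers and −0.902 to −1.02 in the 3 male livers, against 1 for a perfect 2-to-1 ratio, and all 19 arrays matched their labelled sex. HCC 6240 tumor 2 had an X ratio of 0.322, against 0.729 to 1.07 in all other female arrays, tumors included. The unaffected liver of mouse 6240 stood apart from the other livers. It had the highest Chr5 and the lowest Chr17 ratio among them and the highest noise between neighbouring probes of all 19 arrays (0.418 on the log2 scale, against 0.179 to 0.333 in the others), so results that rest on it are also given without it. A single extra copy in every cell would give 0.585 in diploid and 0.322 in tetraploid cells. The chromosomes were selected for their average HCA signal against the livers, so the HCA averages are a description and carry no test. In aCGH of bulk tissue, a gain in fewer cells and a gain of fewer copies per cell cannot be told apart.

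Higher Chr5 and Chr17 ratios were not general among the HCAs and were not particular to them. On Chr5 the aCGH ratio was 0.195 in HCA 2430, 0.090 in HCA 6199, 0.032 in HCA 5901 and 0.004 in HCA 5884. On Chr17 it was 0.176 in HCA 6199, 0.144 in HCA 2430, 0.072 in HCA 5884 and −0.032 in HCA 5901. The 9 unaffected livers lay between −0.040 and 0.027 on Chr5 (median −0.0049) and between −0.036 and 0.027 on Chr17 (median −0.0046). Both p53(f/f) adenomas stood above every liver on both chromosomes, whereas each p53(f/+) adenoma did so on 1 chromosome, HCA 5901 on Chr5 and HCA 5884 on Chr17. Of the 8 pairs of an HCA and a chromosome, 6 were above every liver, against 34.2% of such pairs over all autosomes. The selection used this contrast.

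The mean HCA ratio was 0.080 ± 0.084 (SD, n = 4) on Chr5 and 0.090 ± 0.092 on Chr17, compared with −0.0068 ± 0.019 and −0.0020 ± 0.021 in the livers (SD, n = 9). The differences of 0.087 and 0.092 are small beside those of other autosomes. By absolute HCA minus liver difference, Chr17 ranked 12 and Chr5 ranked 13 among the 19 autosomes, and Chr15, the first, had 0.366. Within tumors, Chr5 was the 4th highest autosome in HCA 2430 and Chr17 the 3rd highest in HCA 6199, but in HCA 5884 and HCA 5901 the better placed of the pair was the 7th and the 8th.

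**Figure D1:**
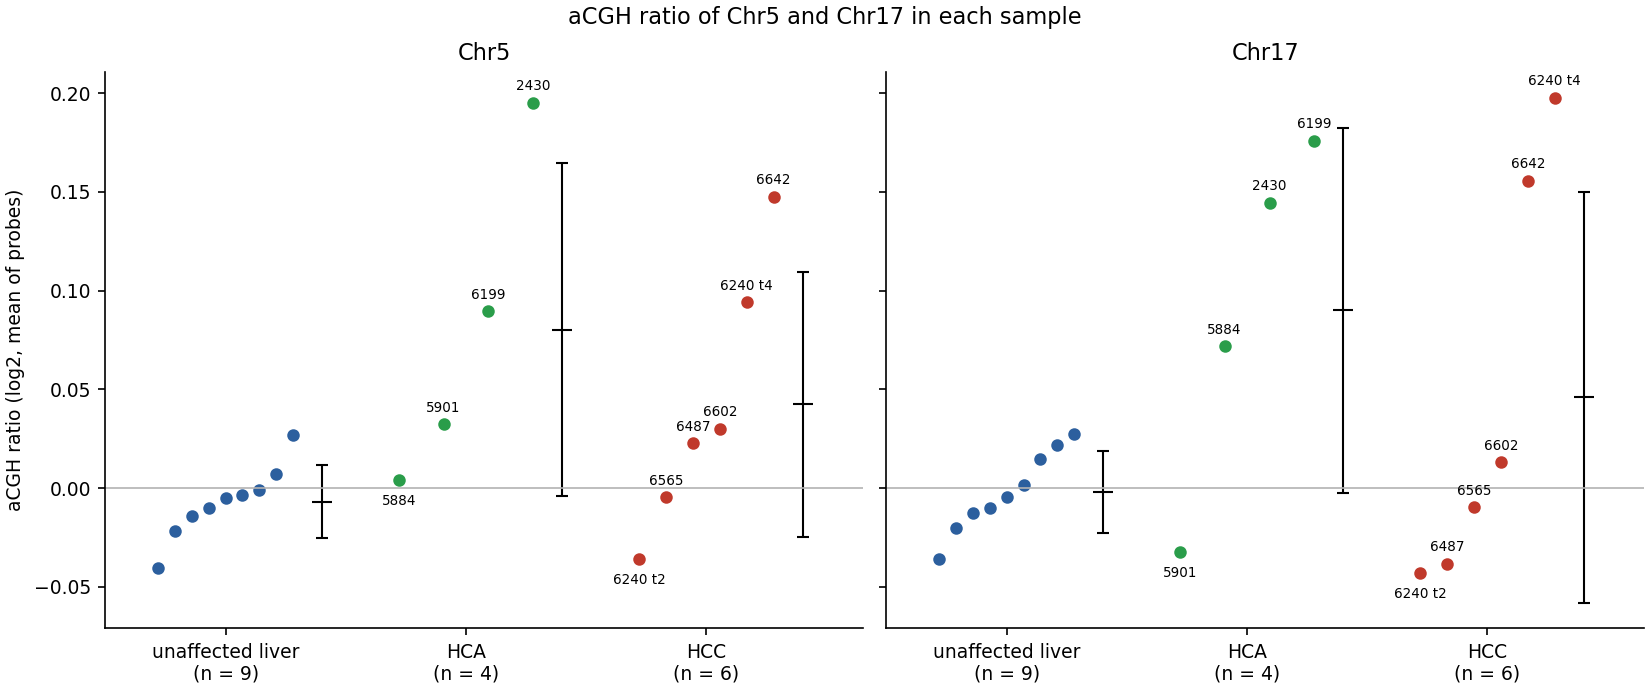
The aCGH ratio (log2, vertical axis) of Chr5 (left) and Chr17 (right) is plotted for each unaffected liver, HCA and HCC, with points ordered within a group and the group mean ± SD as black bars. The 9 livers stay within −0.040 to 0.027 on both chromosomes, while HCA 2430, HCA 6199, HCC 6642 and HCC 6240 tumor 4 (6240 t4) lie above them on both.

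Among the HCCs, 2 tumors had ratios as high as those of the adenomas and 4 lay near the livers. The Chr5 ratio was 0.148 in HCC 6642, 0.094 in HCC 6240 tumor 4, 0.030 in HCC 6602, 0.023 in HCC 6487, −0.0047 in HCC 6565 and −0.036 in HCC 6240 tumor 2. The Chr17 ratio was 0.198 in HCC 6240 tumor 4, 0.156 in HCC 6642, 0.013 in HCC 6602, −0.0096 in HCC 6565, −0.038 in HCC 6487 and −0.043 in HCC 6240 tumor 2. The tumors of mouse 6240 were thus at opposite ends of the group on Chr17. On Chr5 3 HCCs and on Chr17 2 HCCs were above every liver, 5 of 12 pairs, against 26.3% of the pairs of an HCC and an autosome.

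The HCCs were not used in the selection, and their comparison with the livers, the same 9 as in the selection, was tested. The mean difference was 0.049 on Chr5, with 5 of 6 HCCs above the liver mean (0.042 ± 0.067 in HCC; exact two-sided permutation test, p = 0.0406, adjusted p = 0.0957 over the 19 autosomes). On Chr17 the mean difference was 0.048, with 3 of 6 HCCs above the liver mean (0.046 ± 0.104; exact permutation p = 0.221, adjusted p = 0.323). Neither passed the threshold of 0.05, which 31.6% of the autosomes passed in this comparison. The test counted the tumors of mouse 6240 as separate samples and did not use the pairing of tumors with livers. The Chr5 call rested on HCC 6240 tumor 2 and on this way of counting. Without HCC 6240 tumor 2 the difference was 0.065 (exact permutation, adjusted p = 0.0142). With the tumors of mouse 6240 averaged, so that each mouse gave 1 HCC value, it was 0.052 (exact permutation, adjusted p = 0.0190). Without HCC 6642 the differences were 0.028 on Chr5 (exact permutation, adjusted p = 0.229) and 0.026 on Chr17 (adjusted p = 0.611), and without HCC 6240 tumor 4 the Chr17 difference was 0.018 (adjusted p = 0.774). Without liver 6240 the differences were 0.053 (exact permutation, adjusted p = 0.0544) and 0.044 (adjusted p = 0.444). On the scan day with 5 HCCs and 4 livers the differences were 0.048 on Chr5 and 0.071 on Chr17, and on the day with 1 HCC and 2 livers they were 0.045 and −0.059. HCC minus HCA was −0.038 on Chr5 and −0.044 on Chr17, given without a test because the HCAs chose the chromosomes. This difference also holds those of p53 genotype, sex and scan day.

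To see how even the shifts were, each tumor was compared with the unaffected liver of the same mouse in bins of 5 Mb, which held 174 to 742 probes each. The largest step was the split of a chromosome, with at least 3 bins on each side, that best separated proximal from distal bins. For a yardstick, each liver was compared in the same way with the mean of the livers of the other mice. An average of livers is less noisy than the single own liver of a tumor. The bins of the livers lay between −0.089 and 0.168 on Chr5 and between −0.119 and 0.081 on Chr17. Their largest steps were 0.097 on Chr5, in liver 6240, and 0.056 on Chr17, in liver 2430. In the other 8 livers the Chr5 step was at most 0.036.

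On Chr17, HCA 6199 and HCA 2430 were shifted evenly from end to end. HCA 6199 exceeded its liver in all 19 bins, by 0.131 to 0.194 (mean 0.161, a fold of 1.12). HCA 2430 exceeded its liver in all 19 bins, by 0.109 to 0.190 (mean 0.149). HCA 5884 also did so in all 19 bins, but by 0.0091 to 0.129 (mean 0.082). At a break threshold of 0.1 its Chr17 had 10 breaks, against 9 in HCC 6487 and at most 6 in a liver. Breaks at this threshold were called in 10 of the 18 liver profiles and cannot be told from the unevenness of the livers. HCA 5901 was lower than its liver in 17 of 19 bins (mean −0.020). Of all 10 tumors, 0 had a Chr17 step beyond that of every liver when compared with their own liver.

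Chr5 was even in HCA 6199, where all 31 bins were higher than in the own liver by 0.063 to 0.134 (mean 0.094) and the largest step was −0.0080. All 31 bins were also higher in HCA 5901, by up to 0.092 (mean 0.047). In HCA 2430 all 31 bins were higher, by 0.118 to 0.302, but not to the same degree. The first 20 bins averaged 0.158 and the last 11 averaged 0.242, a step of 0.085 that lay below the step of liver 6240 and above those of the other 8 livers. In HCA 5884 17 bins were higher and 14 lower, between −0.117 and 0.078, with a mean of 0.0075. The selected HCA signal on Chr5 thus came mainly from HCA 2430 and HCA 6199.

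Averaged over the 4 HCAs, the difference from the own liver was highest at the distal end of Chr5, in the bin starting at 150000001 (0.117 ± 0.127, SD, n = 4), and lowest at chr5:85000001-90000000 (0.042 ± 0.108). That last bin also had the largest SD between livers on Chr5, 0.069, with liver 6240 highest at 0.124 and liver 6487 lowest at −0.089. On Chr17 the HCA difference was highest at chr17:65000001-70000000 (0.113 ± 0.090) and lowest at chr17:30000001-35000000 (0.069 ± 0.073). These SDs are of the level between adenomas, not of the difference between 2 bins of a tumor. On Chr17 the highest bin exceeded the lowest in each HCA. The values were 0.155 against 0.120 in HCA 2430, 0.115 against 0.046 in HCA 5884, −0.013 against −0.024 in HCA 5901 and 0.194 against 0.133 in HCA 6199. On Chr5 it did so in HCA 2430, HCA 5884 and HCA 6199 and not in HCA 5901 (0.054 against 0.078). The bins were picked as extremes of these values, so this was not tested. All 4 HCAs lay above all 9 livers in 5 of the 31 Chr5 bins, each at or beyond the bin starting at 115000001, and in 0 of the 19 Chr17 bins, against 10.8% of all autosomal bins.

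In the HCCs, HCC 6642 exceeded its own liver in all 31 Chr5 bins, by 0.066 to 0.256 (mean 0.158), and in all 19 Chr17 bins, by 0.053 to 0.251 (mean 0.154). HCC 6240 tumor 4 exceeded its own liver in all 19 Chr17 bins, by 0.154 to 0.321 (mean 0.234, a fold of 1.18, the highest mean of either chromosome in the 10 tumors). On Chr5 it was higher in 25 of 31 bins (mean 0.067). HCC 6487 was higher in all 31 Chr5 bins (mean 0.063) and lower in 18 of 19 Chr17 bins (mean −0.066). HCC 6565 stayed within −0.037 to 0.061 on Chr5 and within −0.068 to 0.00055 on Chr17. HCC 6240 tumor 2 was lower than its own liver in 28 of 31 Chr5 bins (mean −0.063). On each of the chromosomes, 5 of the 10 tumors had all of their bins above the own liver. These tumors include HCA 2430, HCA 5901 and HCA 6199 on Chr5 and HCA 2430, HCA 5884 and HCA 6199 on Chr17. The selection used the HCA values, and the share over all autosomes is not given here, so the counts are a description.

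**Figure D2:**
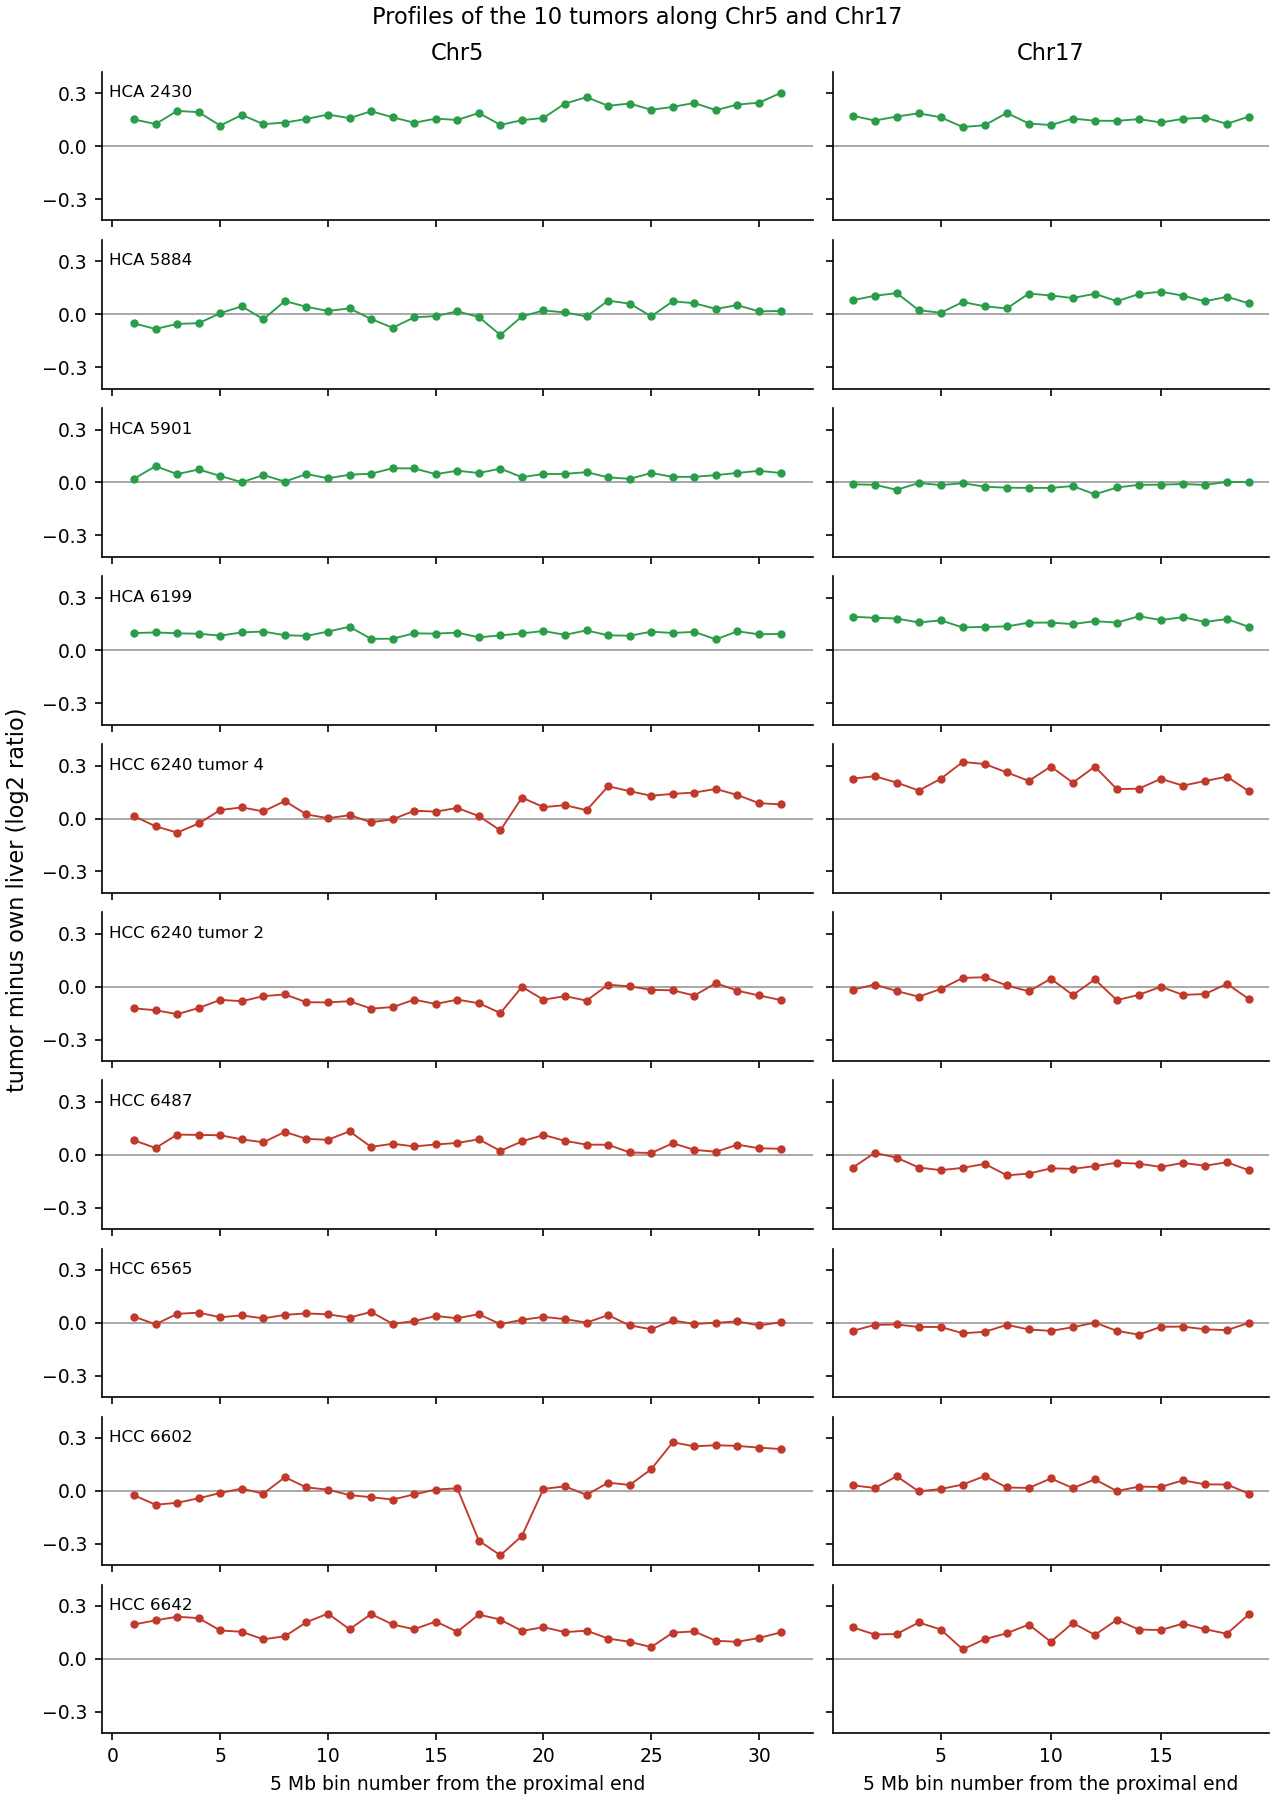
Each row is 1 tumor, HCA in green and HCC in red, and each point is the log2 ratio of tumor minus own liver in a 5 Mb bin, numbered from the proximal end of Chr5 (left, 31 bins) and Chr17 (right, 19 bins). Profiles differ in how level they are. HCA 2430 is higher over the last 11 bins of Chr5 (0.242 against 0.158), and HCC 6602 has a low stretch and a high distal end on Chr5. HCC 6240 tumor 4 (−0.080 to 0.183) and HCC 6642 (0.066 to 0.256) also vary along Chr5.

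The profile of liver 6240 followed a wave along both chromosomes. The bin pattern of HCC 6642, from another mouse, resembled this wave, with a correlation across bins of 0.93 over the 31 bins of Chr5 and 0.88 over the 19 of Chr17. On Chr5 the correlation with this wave was also 0.81 for liver 6642, the own liver of that tumor, 0.72 for liver 5884 and 0.65 for liver 6602. It was negative for the other 5 livers, down to −0.82 for liver 6199, and −0.76 for HCA 6199. On Chr17 it was 0.61 for liver 6642, 0.50 for liver 5884 and between −0.55 (liver 5901) and 0.22 (liver 6565) for the remaining livers. These points share array design and probe content. The wave of liver 6240 is measured against the other livers, so its correlations with them are not independent of that baseline. Their signs and sizes are a description. The number of probes in a bin went with the wave in liver 6240 (r = −0.56 on Chr5 and −0.64 on Chr17) and in HCC 6642 (r = −0.65 and −0.53). In the other livers its correlation with the Chr5 profile ranged from −0.45 (liver 5884) to 0.51 (liver 6199). The part of the probe number in the unevenness of these samples was not tested. Measured against the livers of other mice, the Chr5 step of HCC 6240 tumor 4 was 0.023 in place of the 0.105 against its own liver, and its mean differences were 0.105 on Chr5 and 0.196 on Chr17. Those of HCC 6240 tumor 2 were −0.025 and −0.045.

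A step beyond that of every liver was found in 0 of 8 pairs of an HCA and a chromosome, against 7.89% over all autosomes, and in 2 of 12 pairs of an HCC and a chromosome, against 17.5%. Both were on Chr5, in HCC 6602 (0.278) and in HCC 6240 tumor 4 (0.105). Against the livers of other mice, the step of HCC 6602 was 0.265, that of HCC 6240 tumor 4 was 0.023 as given above, and HCC 6642 had a Chr17 step of 0.057, just beyond the largest of the livers. The limit itself came from liver 6240. With it left out of the limit only, which became 0.036, 8 tumors had a Chr5 step beyond the livers, 2 HCAs and all 6 HCCs. The tumors of mouse 6240 still had this liver subtracted. Against the livers of other mice, HCC 6240 tumor 4 (0.023), HCC 6240 tumor 2 (−0.029), HCC 6487 (−0.030) and HCC 6565 (−0.018) lay within 0.036. HCA 2430, HCA 5884, HCC 6602 and HCC 6642 stayed beyond it, and HCA 6199 (0.037) was also beyond it.

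In HCC 6602, Chr5 differed from the own liver in part of its length. In windows of 20 neighbouring probes, with segments of at least 10 windows that differ by at least 0.2, Chr5 of this tumor split into 4 segments. The proximal 78.0 Mb (chr5:3008399-80964555, 6420 probes) lay at −0.011 relative to the own liver. The next 13.1 Mb (chr5:81007477-94154527, 1240 probes) lay at −0.316 ± 0.082 (SD over 62 windows), a fold of 0.803. A stretch of 28.1 Mb (chr5:94181314-122299943, 2780 probes) lay at 0.020, and the distal 30.0 Mb (chr5:122308388-152316891, 3400 probes) at 0.246 ± 0.092 (SD over 170 windows), a fold of 1.19. The chromosome mean of 0.031 in this tumor therefore averages a lower segment, a higher segment and stretches near 0.

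The own liver of mouse 6602 lay at 0.0083 in the lower segment and at −0.0048 in the higher segment relative to the other livers. Against the livers of other mice, the segments of the tumor were at −0.309 and 0.241. In the stretch of the lower segment, the other 9 tumors ranged from −0.088 (HCC 6240 tumor 2) to 0.206 (HCC 6642), and 7 of the 9 were higher than their own liver. In the stretch of the distal segment, HCA 2430 had 0.233, which is near the 0.246 of HCC 6602, but its neighbouring stretch was at 0.232 as well. At this threshold 0 of the other 19 tumor profiles and 0 of the 18 liver profiles of Chr5 and Chr17 had a break. With a threshold of 0.1, breaks were called in 10 of the 18 liver profiles, so steps of that size cannot be told from the unevenness of the livers.

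**Figure D3:**
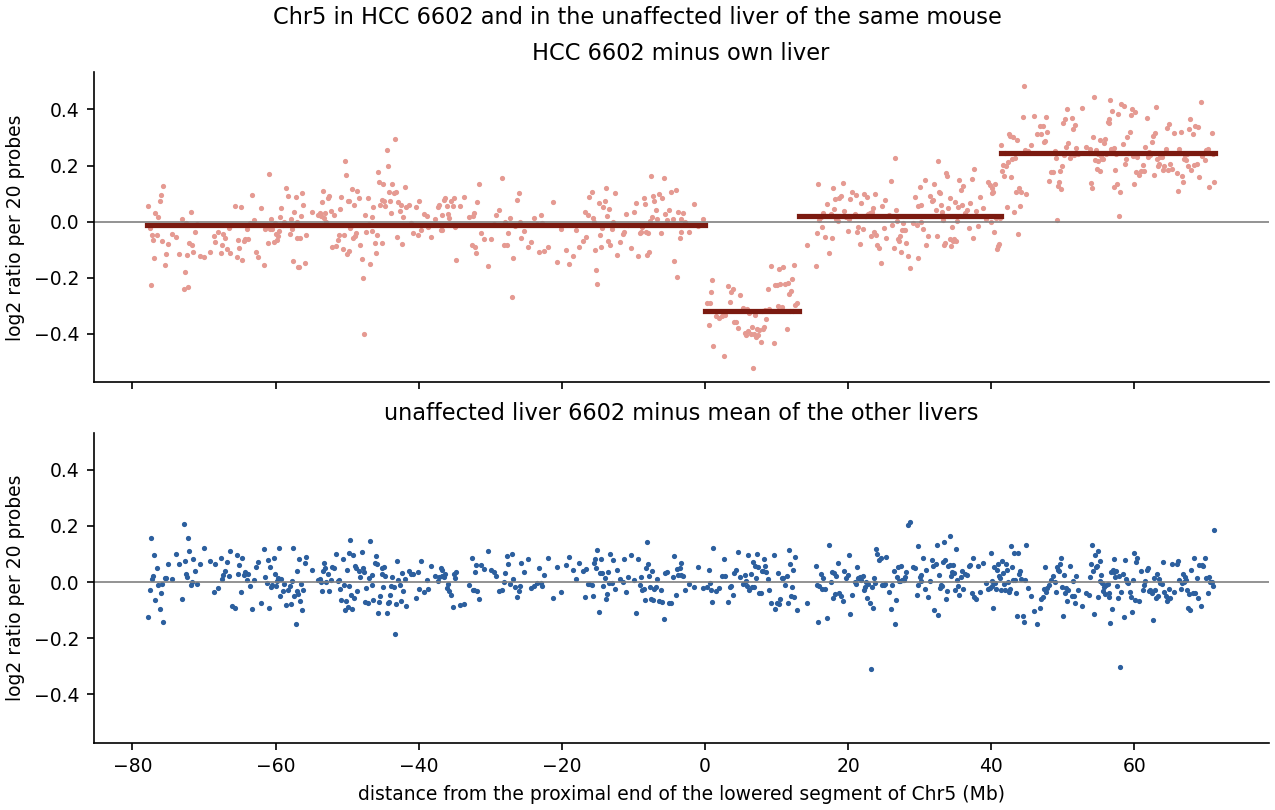
Log2 ratios per window of 20 probes along Chr5 are plotted against the distance in Mb from the proximal end of the lower segment, for HCC 6602 minus its own liver (top, with segment means as dark lines) and for the own liver minus the mean of the other livers (bottom). The tumor is at −0.316 over 13.1 Mb and at 0.246 over the distal 30.0 Mb, and the liver stays near 0 in both stretches.

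The HCCs were also compared with the livers for the SD of the bins within a chromosome. On Chr5 this SD was 0.055 ± 0.052 in the 6 HCCs and 0.034 ± 0.0085 in the 9 livers (exact two-sided permutation test, p = 0.263, adjusted p = 0.610). On Chr17 it was 0.039 ± 0.011 and 0.036 ± 0.011 (exact permutation p = 0.709, adjusted p = 0.917). Of all 19 autosomes, 0% passed this test after adjustment and 1 had an unadjusted p under 0.05. HCC 6602 alone, at 0.159, carried the Chr5 difference, which was −0.00059 without it.

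The bins were also tested singly. In a limma fit over all 500 bins, 0 of the 50 bins of Chr5 and Chr17 passed an adjusted p of 0.05, where 28% of all bins did. Of all 500 bins, 217 had an unadjusted p under 0.05, and 103 of these were higher in HCC. On Chr5 and Chr17 there were 3 such bins of 50, all on distal Chr5 and all higher in HCC. They began at 125000001 (0.089 ± 0.038, SE), 130000001 (0.085 ± 0.038) and 140000001 (0.080 ± 0.036), with limma adjusted p of 0.0862, 0.0933 and 0.0970. These bins lie in the higher segment of HCC 6602. The count at an unadjusted p under 0.05 was 4 without HCC 6602, 0 without HCC 6642, 0 without HCC 6240 tumor 4 and 14 without HCC 6240 tumor 2. Leaving out HCC 6240 tumor 2 raised the count of bins past the threshold to 6, leaving out HCC 6565 to 1, and averaging the tumors of mouse 6240 to 2. The median difference over the bins was 0.053 on Chr5 and 0.048 on Chr17, against 0.011 over all autosomal bins.

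Between the p53 genotypes, neither chromosome passed the threshold in the unaffected livers. On Chr5 the ratio was −0.0092 ± 0.025 in the 5 p53ser246+ livers and −0.0039 ± 0.0087 in the 4 floxed p53 livers (exact two-sided permutation test, p = 0.698, adjusted p = 0.885). On Chr17 the ratios were −0.0011 ± 0.027 and −0.0032 ± 0.012 (exact permutation p = 0.881, adjusted p = 0.930). After adjustment 0% of the autosomes passed, and 3 had an unadjusted p under 0.05.

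Chr5 and Chr17 were higher together in part of the tumors. Relative to the own liver, 6 of 10 tumors were higher on both chromosomes, 1 was lower on both and 3 were higher on Chr5 and lower on Chr17. Differences above 0.05 on both were found in 4 tumors: HCA 2430 (0.188 on Chr5, 0.149 on Chr17), HCA 6199 (0.094, 0.161), HCC 6240 tumor 4 (0.067, 0.234) and HCC 6642 (0.158, 0.154). The HCA values were used to select both chromosomes, and the share over other pairs of autosomes is not given here. These joint counts are therefore a description. On Chr5 HCC 6240 tumor 4 was at 0.022 with normexp background correction and at −0.061 when arrays were centred on Chr7, Chr11 and Chr19, and HCC 6642 was at −0.012 on Chr5 and −0.0037 on Chr17 with normexp. Both HCAs stayed above 0.05 on both chromosomes under all background corrections, centrings and probe filters run. The balance differed from tumor to tumor, with Chr17 well above Chr5 in HCC 6240 tumor 4 and Chr5 above Chr17 in HCC 6487 (0.063, −0.066). Liver 6487 had the lowest Chr5 and the highest Chr17 ratio of the livers, and against the livers of other mice HCC 6487 was at 0.025 and −0.033.

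Over the 9 mice, with the tumors of mouse 6240 averaged, the Chr5 and Chr17 differences had Pearson's r = 0.53 (exact permutation p = 0.144) and Spearman's rho = 0.40 (exact permutation p = 0.291). Without the 2 mice farthest from the Chr5 median, 2430 and 6642, r was 0.081, so the relation rested on them. The ratios of the tumors without subtraction of the liver gave r = 0.74 (exact permutation p = 0.0196, n = 9). Both relations in tumors, with and without the liver subtracted, were chosen after their values were seen, and HCAs and HCCs are pooled in them. They include the HCA values by which both chromosomes were selected, so their r, p and rank are a description and not a test. By rank, the r of 0.53 was 12 among the 171 pairs of autosomes. Over the 10 tumors, the ratios of Chr1 (r = 0.61), Chr15 (r = 0.54) and Chr14 (r = 0.33) were most like the mean of Chr5 and Chr17, and that of Chr3 was least like it (r = −0.74), as a description.

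In the unaffected livers, with each array centred on its autosomal median, livers with a higher Chr5 ratio had a lower Chr17 ratio, over a range of less than 0.07 on either. Pearson's r was −0.83 (n = 9; exact permutation p = 0.00554, adjusted over both relations 0.0111) and Spearman's rho −0.75 (exact permutation p = 0.0255, adjusted p = 0.0510). Counted from the lowest, the r of −0.83 ranked 8 among the 171 pairs of autosomes in these livers. Without livers 6240 and 6487, the farthest from the Chr5 median, r was −0.50 (exact permutation p = 0.259, n = 7), so this relation rested on them. The males were lower on Chr5 (mean −0.024) and higher on Chr17 (0.017) than the females (0.0017 and −0.012). Within the 6 females r was −0.61 (exact permutation p = 0.211), and the 3 males and each scan day, with 2 to 4 livers, were too few for a value. The sign also depended on the centring of the arrays, with r = 0.85 without centring and 0.032 when centred on all probes. The difference between the relations in tumors and in livers was not tested.

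**Figure D4:**
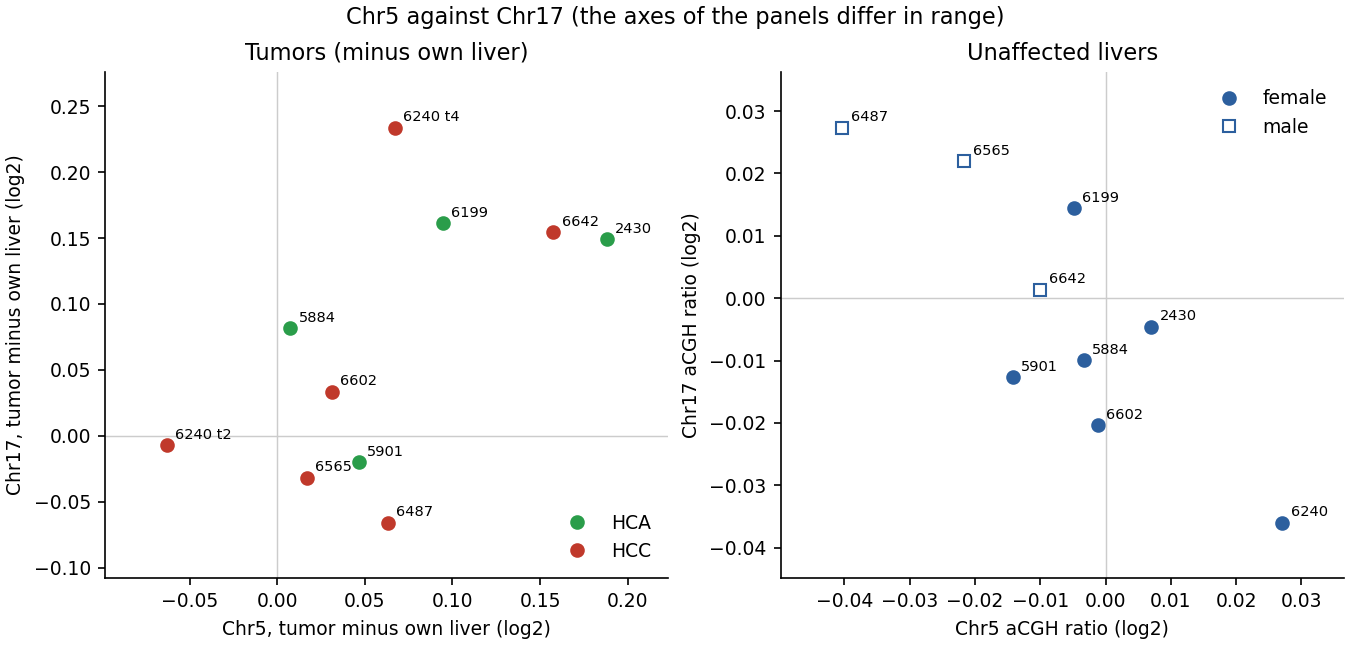
Chr5 (horizontal axis) is plotted against Chr17 (vertical axis), as log2 differences from the own liver in the 10 tumors (left, HCA green and HCC red) and as log2 aCGH ratios in the 9 unaffected livers (right, filled circles for females and open squares for males). HCA 2430, HCA 6199, HCC 6642 and HCC 6240 tumor 4 lie at the upper right, and the axis ranges of the livers are several times narrower than those of the tumors.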

How the data were processed

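Each of the 19 genomic DNA samples had an Agilent Mouse Genome CGH array of its own, labelled with Cy5 against Cy3-labelled control liver DNA. The authors extracted signals with Feature Extraction 10.5.1.1, which subtracted the background and normalised the dyes linearly. They deposited for each of 243301 spots the log10 ratio of red over green and the spot intensities, and a table of all samples with the same log10 ratios. Here, control spots and spots marked as outliers (0.0692% to 0.290% of an array) were left out, spots of a probe were averaged, and log2 ratios were set relative to the median autosomal probe of the array. The median Cy5 signal was 1.84 to 4.95 times the local background, and at least 98.4% of autosomal spots were well above background. The number of arrays limits the precision.

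Group means were compared by an exact permutation test of the group labels, adjusted over 19 autosomes by Benjamini-Hochberg, and bins by limma 3.58.1 in R 4.3.3, adjusted over 500 bins. With 5 against 4 livers the smallest p is 0.00794. Windows, steps and breaks are explained where they are used. Bins held at least 50 probes. The step measure was run on simulated data with a planted step and independent noise between probes. That noise has no wave along a chromosome, so the run does not tell how often unevenness gives a step. The chromosomes, bins and gene lists were chosen with earlier results of these data known. The bins given singly are those with the highest and lowest HCA minus own liver difference and the largest SD between livers. Bins starting at other positions were named after their values were seen. The Chr17 bin with the largest SD between livers is not reported here. Gene lists were placed on chromosomes with RefSeq for GRCm38.p6, and its coordinates were not used. Some listed genes are not reported here.

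Tumors and livers are paired because each pair came from 1 mouse. Deviations of a tumor and its own liver from their group means had a correlation across autosomes between −0.219 and 0.287, and 5 of 10 pairs were above 0.1. Fits with the mouse as a block, or with the scan day, 4 other centrings, 3 other signal corrections, other bin sizes, probe filters and each sample left out in turn were run as alternatives. Breaks at a step of 0.1, other livers as baseline, and the relation of Chr5 with Chr17 in tumors, with and without the liver subtracted, were added after the data were seen.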

Additional observations from a re-analysis of the deposited data

Results flagged for a closer look

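The SD of the 5 Mb bins of Chr5 was 0.159 in HCC 6602, while the other 5 HCCs lay between 0.022 and 0.046. The gap to the nearest of them was 82.4% of the range of the group, beyond Dixon's critical value for 6 samples. This is the tumor with a lower segment of 13.1 Mb and a higher distal segment of 30.0 Mb on Chr5. In all, 12 sets of values were looked at (mean ratio and SD of the bins, each of Chr5 and Chr17 in 3 groups) and this was the 1 set with such a sample, where chance gives about 1 in 20.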

How the results depend on the processing

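The HCC minus liver differences stayed positive under all alternatives, from 0.026 to 0.072 on Chr5 and 0.0064 to 0.071 on Chr17, and from 0.028 to 0.065 and 0.018 to 0.066 when each sample was left out in turn. Chr5 passed the threshold when arrays were centred on the autosome means (0.0550, exact permutation, adjusted p = 0.0255) or the HCCs of mouse 6240 averaged (0.0518), and Chr17 passed in none. With the mouse as a block in limma the differences were 0.051 (limma adjusted p = 0.409) and 0.045 (0.505), and the block changed no call. Exact sign flips over 5 mice cannot go below 0.0625, which Chr5 reached. Bins of Chr5 and Chr17 past the threshold numbered 0 in the reported fit, 1 with bins of 2 Mb, 2 with mouse 6240 averaged, and 0 to 6 with a sample left out. For the bin SD, the Chr5 difference was −0.00059 to 0.027 with a sample left out. The Chr17 one was −0.0018 to 0.0045, and it was −2.2e-05 with probe medians and −0.00050 in females. The livers' genotype difference changed sign on Chr5 with normexp (0.011), no centring (0.023), centring on all probes (0.010) or on Chr7, Chr11 and Chr19 (0.015) and in females (0.017). On Chr17 it did so without background correction (−0.0072), with loess (−0.0082), autosome means (−0.0057), probe medians (−0.0092), probes well above background (−0.0047), without the most variable probes (−0.014) and in females (−0.025). With a sample left out it ranged from −0.014 to 0.0024 and −0.0051 to 0.011. The liver r was 0.91 with normexp, 0.85 without centring, 0.032 centred on all probes and 0.51 on Chr7, Chr11 and Chr19. It was −0.42 without background correction, −0.61 with loess, −0.30 with autosome means, −0.34 with probe medians, −0.10 without variable probes, −0.61 in females and −0.88 to −0.71 with a sample left out. The exact permutation p of the tumor r was under 0.05 with normexp (r = 0.74), with centring on Chr7, Chr11 and Chr19 (0.76) and with tumor ratios alone (0.74). With a sample left out r was 0.42 to 0.67. The tumor r includes the HCA values used in the selection and is a description. Tumors with a break numbered 6 in place of 1 with a step of 0.1. Pairs of a tumor and a chromosome beyond every liver numbered 8 in place of 2 with liver 6240 left out of the limit only. With normexp HCC 6642 was at −0.012 on Chr5 and −0.0037 on Chr17. Normexp also shrank the absolute X ratio of the livers to 0.032 to 0.712, and no background correction to 0.446 to 0.656, so ratios under these are on a narrower scale. HCA minus liver stayed between 0.048 and 0.112 on Chr5 and 0.053 and 0.133 on Chr17 throughout. The causes were not tested.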
